A study of Mus musculus with 9 samples.

Results

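The complement genes described here were C1qa, C1qb, C1qc, C4a, C4b, C2, Cfb, C3 and C3ar1, 9 of the 56305 genes counted in whole mouse kidney. They were chosen by name, with earlier results of these data known. They cover the start of the classical pathway, the core of the alternative pathway and the receptor of a complement fragment. All 9 were found and all 9 passed the filter on low counts, and the labelled tissue carried its defining proximal tubule markers in every library. RNA was sequenced in 9 libraries, 3 in each of 3 groups. The first group was wild-type (PFKFB3 WT) littermate kidney after sham surgery. The second was wild-type kidney 14 days into recovery from bilateral ischaemia-reperfusion injury (IRI; the injured wild-type, or wild-type IRI, libraries), in which the renal arteries were clamped for 30 min. The third was kidney of conditional knockout mice (PFKFB3 CKO, Pfkfb3ΔPTC), which lack Pfkfb3 in proximal tubular cells, taken 14 days after the same procedure. The product of Pfkfb3 makes a sugar phosphate that activates glycolysis. The sources used here do not give the Cre driver of the deletion, the strain or the age of the mice, and a knockout sham group was not analysed here. The knockout can therefore be compared with its injured wild-type littermates at matched injury, while its comparison with sham changes genotype and injury together. The design text names the role of PFKFB3 in kidney fibrosis as the question.

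Complement is a cascade of plasma and tissue proteins that tags microbes, immune complexes and dying cells. The classical pathway starts when C1q binds a target and its partner proteases cleave C4 and C2, which then form an enzyme that cleaves C3. The alternative pathway reaches the same step with factor B, the product of Cfb, and both release C3a, a peptide sensed by the receptor C3ar1. The liver makes most circulating complement, but macrophages make C1q, and kidney tubules are known to make C3 during injury.

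The starts of some of these genes could be read next to the counts. The RefSeq promoter table (GRCm38.p6) held C1qb, C1qc, C3 and C3ar1, 4 of the 9 genes. The 250 bases upstream of the start are shown for C1qb, C3 and C3ar1, because these genes moved together in the injured wild-type kidney. The window of C1qc is not shown, since a long stretch of it lies in an exon of the GENCODE M21 annotation. The window of C3ar1 reaches 4 bases into its GENCODE span. All 3 lie on the minus strand and are written 5′ to 3′ in the direction of transcription, with motif matches in capitals. They cover chr4:136886201-136886450, chr17:57228137-57228386 and chr6:122856158-122856407.
C1qb: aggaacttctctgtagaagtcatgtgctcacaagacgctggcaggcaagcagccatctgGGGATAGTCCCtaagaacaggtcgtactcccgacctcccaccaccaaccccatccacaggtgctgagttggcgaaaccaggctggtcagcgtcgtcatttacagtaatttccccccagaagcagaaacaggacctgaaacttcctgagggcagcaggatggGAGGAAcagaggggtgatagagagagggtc
C3: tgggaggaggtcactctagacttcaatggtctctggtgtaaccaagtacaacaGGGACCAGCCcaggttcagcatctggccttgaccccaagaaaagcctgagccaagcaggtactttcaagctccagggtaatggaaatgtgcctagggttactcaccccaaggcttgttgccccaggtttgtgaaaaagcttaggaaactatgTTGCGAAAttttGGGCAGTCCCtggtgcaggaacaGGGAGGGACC
C3ar1: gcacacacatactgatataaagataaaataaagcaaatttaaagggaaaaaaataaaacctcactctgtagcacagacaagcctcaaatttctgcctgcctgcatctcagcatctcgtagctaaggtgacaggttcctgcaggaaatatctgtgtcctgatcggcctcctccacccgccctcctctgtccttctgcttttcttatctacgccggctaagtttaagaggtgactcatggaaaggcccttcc

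Both strands were searched for 4 motifs. The kappaB motif, bound by NF-kB, was searched as GGGA, 4 bases of any kind and CC, the C/EBP motif as TTGCNNAA, the PU box, the site of the myeloid factor PU.1, as GAGGAA, and the STAT motif as TTCNNNGAA. The C3 window held 3 kappaB matches, at 197 to 188, 33 to 24 and 10 to 1 bases upstream of the start, and a C/EBP match 45 to 38 bases upstream. The C1qb window held a PU box 30 to 25 bases upstream. It also held 2 kappaB matches, on opposite strands, that overlap each other and span 191 to 181 bases upstream. The C3ar1 window held none of the 4 motifs, and the STAT motif was in none of the windows shown. Among 32817 promoter windows of the same length, 17.6% held a kappaB match, 0.475% held at least 3, 23.3% held a PU box, 9.57% a C/EBP match and 7.01% a STAT match. The kappaB pattern left 4 bases open, so a match need not be a site that NF-kB binds. These matches are letters in a window, and no binding was measured.

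Library totals ran from 15626792 to 19987842 counts, and the values below are counts scaled per 1000000 reads (CPM) on library sizes scaled with the TMM method. The first principal component of log2 CPM held 69.7% of the variance and set the injured wild-type libraries apart from the rest. The second set the sham libraries, at 27.5 to 38.2, apart from the injured knockout libraries, at -44.3 to -25.0. Pfkfb3 itself averaged 20.7 ± 1.06 CPM in sham (SD, n = 3), 32.0 ± 5.88 in wild-type IRI and 20.8 ± 4.04 in injured knockout kidney. It was lower in the knockout than in the injured wild-type, by a log2 fold change of -0.62 (edgeR quasi-likelihood test, adjusted p = 0.00773), and did not pass the test against sham. Counts of the whole kidney sum all cell types, so this check does not isolate the proximal tubule. Injured knockout replicate 1 stood apart from the other knockout libraries: the summed CPM of 8 endothelial and podocyte markers was lowest in it, at 164, against 548 and 568 in the others. The labels do not say whether the libraries came from separate mice, and the p-values therefore reflect spread among these samples alone, which may be technical. In whole tissue, fewer cells of a type and less RNA per cell cannot be told apart.

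After injury in wild-type mice, 7 of the 9 complement genes rose and 2, C4a and Cfb, fell. Over all 15974 genes tested, 29.5% rose and 28.7% fell, 58.2% in all, so a called change was common in this comparison. The members' median log2 fold change was 3.15, against 0.03 for all tested genes. The members were chosen with earlier results of these data known, so the contrasts with all genes here are descriptive only. All 9 sets of libraries were fully separated, 7 upward and 2 downward, where 34.5% of all genes were separated upward and 32.3% downward. In the injured knockout, against the injured wild-type, 6 of the 9 were lower, C4a and Cfb were higher, and C2 was not called. The background was 28.1% lower and 27.8% higher, 55.9% in all, and the members' median was -3.24 against -0.01 for all genes. The background shares of both comparisons also apply to the counts of called markers below. Separation was complete for the same 6 downward and 2 upward, against 32.1% and 31.1% of all genes. Against sham, the injured knockout had no member higher and 1 lower, Cfb, beside 8.13% and 9.48% of all genes, with a median of 0.03 against 0.01. Cfb was also the only member whose knockout and sham libraries did not overlap, beside 17.8% of all genes separated downward and 18.4% upward. The comparisons share libraries, so a gene high in the injured wild-type enters the first and the second from that same group, and opposite signs there are not separate observations.

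**Figure D1:**
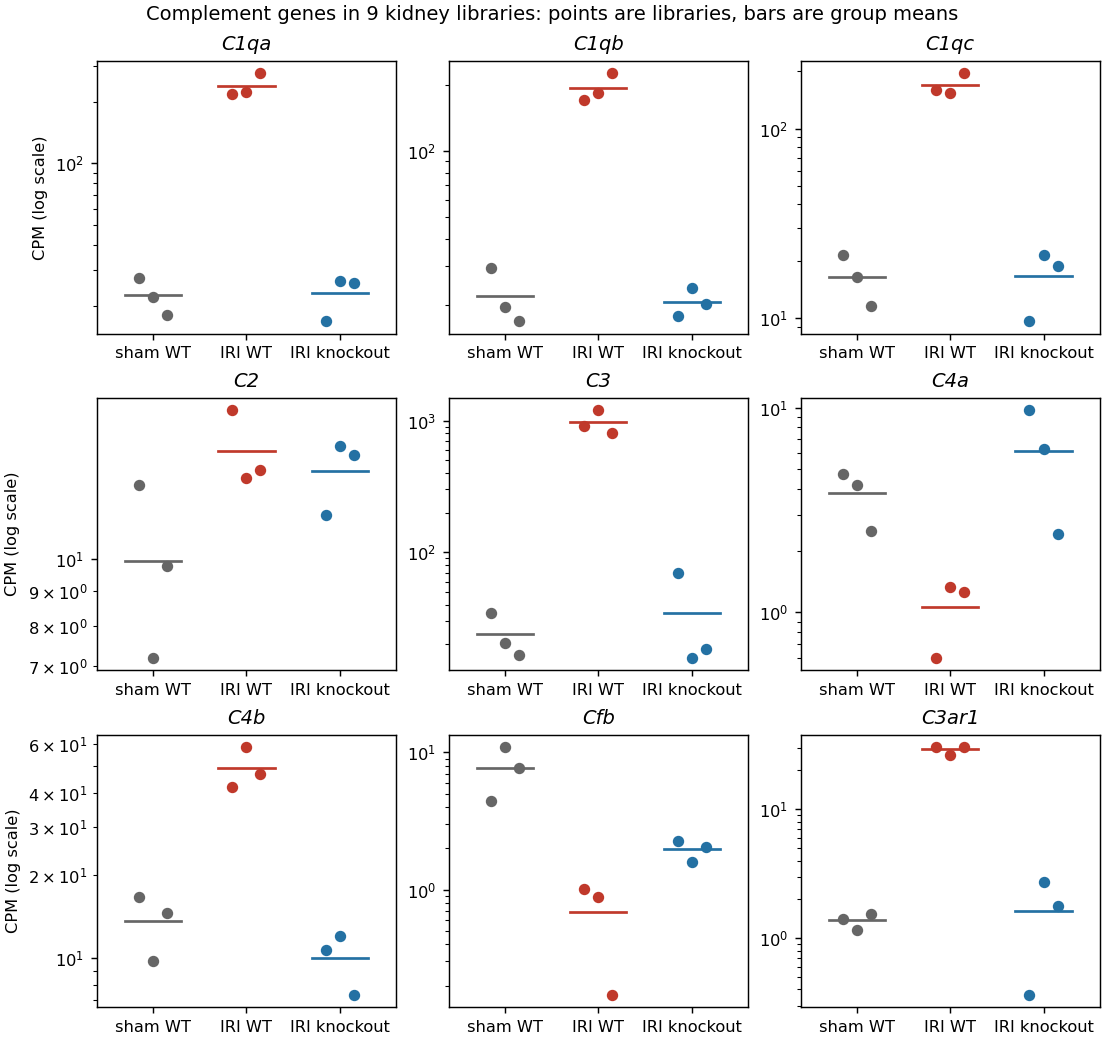
CPM (log axis) of each complement gene in the 9 libraries; points are libraries and bars are group means. The injured wild-type libraries are the highest for C1qa, C1qb, C1qc, C3, C4b and C3ar1 and the lowest for C4a and Cfb.

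**Figure D2:**
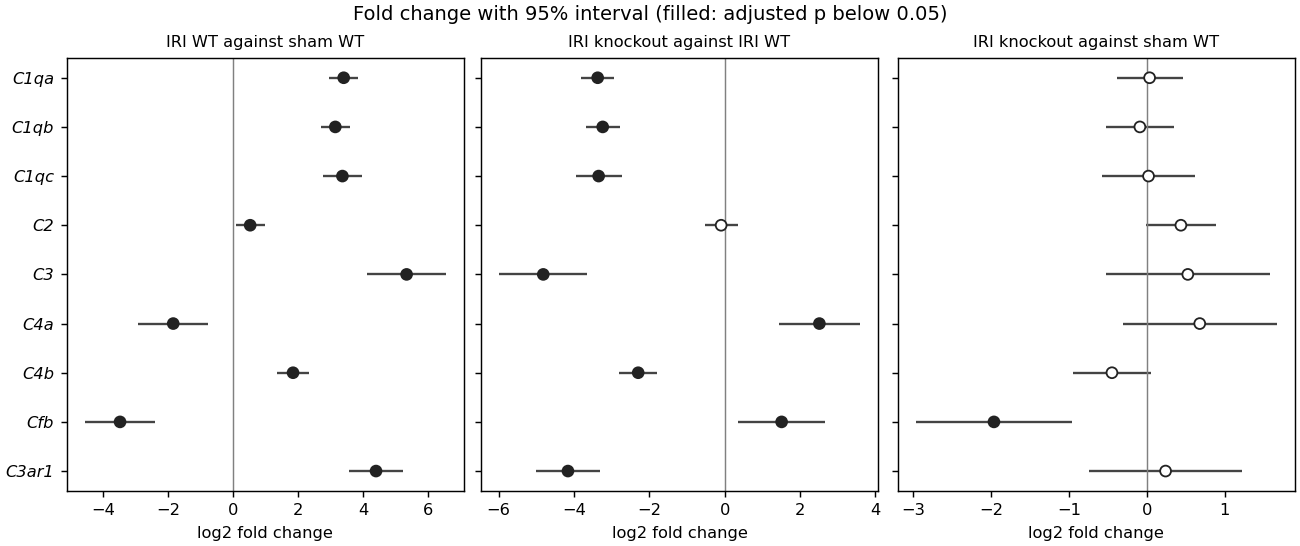
Log2 fold change of each gene with its 95% interval in the 3 comparisons; filled points passed an adjusted p of 0.05. In the right panel, injured knockout against sham, Cfb is the only filled point.

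The 3 chains of C1q rose together after injury, each about an order of magnitude. C1qa, C1qb and C1qc encode the A, B and C chains that assemble into C1q, the recognition molecule of the classical pathway, and they sit side by side on the minus strand of chromosome 4 (mm10; C1qb at chr4:136880129-136886187, C1qc at chr4:136889804-136893065, C1qa at chr4:136895917-136898803). C1qa was at 27.5, 22.2 and 18.0 CPM in the sham libraries, at 218, 224 and 276 in the injured wild-type libraries and at 16.9, 26.6 and 25.9 in the injured knockout libraries. The injured wild-type libraries were all far above the rest, and the sham and knockout ranges overlapped. C1qa rose 10.6-fold with injury, a log2 fold change of 3.41 (SE 0.20, adjusted p = 3.02e-07). The level was 10.4-fold lower in the injured knockout than in the injured wild-type (adjusted p = 3.59e-07).

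C1qb was at 29.4, 19.5 and 16.8 CPM in sham, 172, 184 and 226 in wild-type IRI and 17.7, 23.9 and 20.1 in injured knockout libraries. C1qc was at 21.4, 16.4 and 11.5, at 159, 155 and 195, and at 9.65, 21.6 and 18.8 CPM in the same order. Both repeated the pattern of C1qa, with the injured wild-type apart and the other groups overlapping. Injury raised C1qb by a log2 fold change of 3.15 (SE 0.20, adjusted p = 4.59e-07) and C1qc by 3.37 (SE 0.28, adjusted p = 2.05e-06). The knockout was lower than the injured wild-type by -3.24 for C1qb and -3.35 for C1qc (adjusted p = 4.81e-07 and 2.26e-06).

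Against sham, the injured knockout differed by a log2 fold change of 0.03 for C1qa, with a 95% interval of -0.39 to 0.46. The interval was -0.53 to 0.35 for C1qb and -0.58 to 0.62 for C1qc. None of the 3 passed the test, and the intervals still allow differences in either direction. The chains also kept similar proportions: scaled per kilobase of exon, C1qb ran at 0.745 to 1.02 times C1qa and C1qc at 0.308 to 0.438 times C1qa over the 9 libraries. The C1qc ratios overlapped between all groups. The C1qb ratios were 0.839 to 1.02 in sham, above 0.753 to 0.787 in the injured wild-type, and those of the knockout, 0.745 to 1.001, overlapped both.

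Macrophage markers moved with C1q. Of 16 macrophage and monocyte markers, 15 rose with injury and none fell, and the same number were lower in the injured knockout than in the injured wild-type; Cd163, a scavenger receptor, was the 1 not called in either. Their median log2 fold changes were 3.32 and -3.65, and no marker was at 0 counts in any library. Summed, the markers ran from 182 to 249 CPM in sham, from 1989 to 2210 in wild-type IRI and from 152 to 189 in injured knockout libraries. Relative to the mean log2 CPM of these markers, the mean log2 CPM of the C1q chains lay 1.43 to 1.63 higher in sham, 1.62 to 1.88 higher in wild-type IRI and 1.65 to 1.90 higher in injured knockout libraries. Most markers of fibroblasts and of other immune cells moved the same way. Of 9 fibroblast markers, 9 rose with injury and 8 were lower in the knockout than in the injured wild-type, and their summed level was 190 to 288 CPM in sham, 2183 to 2942 in wild-type IRI and 238 to 436 in injured knockout libraries. Of 9 tested T and NK cell markers, 8 rose and 8 were lower. Summed with the untested Gzma, they were at 7.14 to 16.5, 42.4 to 61.8 and 9.14 to 9.5 CPM in the same order. All 4 tested B and plasma cell markers (Cd79a, Cd79b, Ms4a1 and Jchain) rose and were lower. Summed with the untested Mzb1, they were at 12.9 to 22.3, 59.7 to 128 and 1.83 to 12.5 CPM. Most of that sum in wild-type IRI was Jchain, at 95.2 CPM on average. Of 7 tested neutrophil markers, Csf3r, Cxcr2, Mmp9 and Il1r2 rose, Retnlg fell and all 7 were lower in the knockout than in the injured wild-type. Summed with the untested Ly6g, they were at 12.0 to 15.8, 30.1 to 47.3 and 3.62 to 5.92 CPM. Endothelial and podocyte markers did not move this way. Of 8, none rose and 1 fell with injury, and none was called in the knockout against the injured wild-type. The part of cell numbers in the C1q difference was not tested.

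The genes whose pattern over the 9 libraries was closest to the C1q mean were Marcks, Fcer1g and Mgp, among 11217 genes that averaged at least 5 CPM. Their root mean square differences in centred log2 CPM were 0.115, 0.131 and 0.157. Fcer1g encodes the shared signalling chain of Fc receptors, Marcks a membrane-linked substrate of protein kinase C, and Mgp a matrix protein that holds back calcification. The C1q genes differed from each other by 0.141 to 0.238 on this measure, and 7.89% of the compared genes lay within 1 of the C1q mean.

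C4 is the first substrate of the classical pathway's proteases, and its 2 mouse genes moved in opposite directions. C4b (chr17:34728380-34743882) encodes the C4 protein, and C4a (chr17:34809092-34823464), known as Slp for sex-limited protein, is a near copy that is under androgen control in some mouse strains. GENCODE M21 lists C4a as a processed transcript and RefSeq as a transcribed pseudogene. C4b was at 16.7, 9.75 and 14.6 CPM in sham, 42.1, 58.8 and 46.7 in wild-type IRI and 10.7, 12.1 and 7.36 in injured knockout libraries. The injured wild-type was above both other groups, which overlapped. C4b rose 3.6-fold with injury, a log2 fold change of 1.85 (SE 0.22, adjusted p = 2.90e-05), and was lower in the knockout than in the injured wild-type by -2.30 (adjusted p = 7.50e-06). Against sham the knockout difference was -0.45 with a 95% interval of -0.95 to 0.06.

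C4a was at 4.75, 4.21 and 2.50 CPM in sham, 0.598, 1.33 and 1.25 in wild-type IRI and 9.72, 6.26 and 2.41 in injured knockout libraries. The injured wild-type libraries were the lowest. The knockout libraries spread from just below the sham range to above it. C4a fell by 1.84 on the log2 scale with injury (SE 0.49, adjusted p = 0.00723). It was higher in the injured knockout than in the injured wild-type by 2.52 (SE 0.49, adjusted p = 0.00105), and the difference from sham, 0.68 with a 95% interval of -0.31 to 1.66, was not called.

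Reads from the 2 genes can be confused. The longest identical run of the aligned C4a and C4b transcripts was 433 bases, and 207 of 5367 aligned bases differed. Of the stretches of 100 bases in each gene's annotated transcripts, 13.1% of those of C4a and 15.2% of those of C4b occurred in both genes. The sources used here do not say how the authors' counting treated such reads. A 60-base window of the GENCODE M21 transcripts with 13 differing bases, in capitals, shows where reads do separate the genes.
C4a: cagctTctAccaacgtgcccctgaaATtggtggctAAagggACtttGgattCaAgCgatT
C4b: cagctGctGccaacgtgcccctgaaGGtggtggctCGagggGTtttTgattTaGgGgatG

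The share of all C4 counts assigned to C4a does not depend on scaling between libraries. It was 22.1, 30.2 and 14.6% in sham, 1.40, 2.22 and 2.61% in wild-type IRI and 47.7, 34.2 and 24.6% in injured knockout libraries. The injured wild-type shares lay below all others, and the sham and knockout shares overlapped. The lowest share, in injured wild-type replicate 1, rested on 13 C4a counts and had a 95% Wilson interval of 0.820 to 2.38%. The highest, in injured knockout replicate 1, rested on 133 and had an interval of 41.9 to 53.5%. These intervals cover counting error only. The group means were 22.3 ± 7.76, 2.07 ± 0.616 and 35.5 ± 11.6% (SD, n = 3). The injury difference of -20.2 percentage points and the genotype difference of 33.4 each gave p = 0.1 in a 2-sided exact permutation test, the smallest p that 3 against 3 libraries allow. The knockout share exceeded the sham share by 13.2 percentage points (exact permutation p = 0.2).

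**Figure D3:**
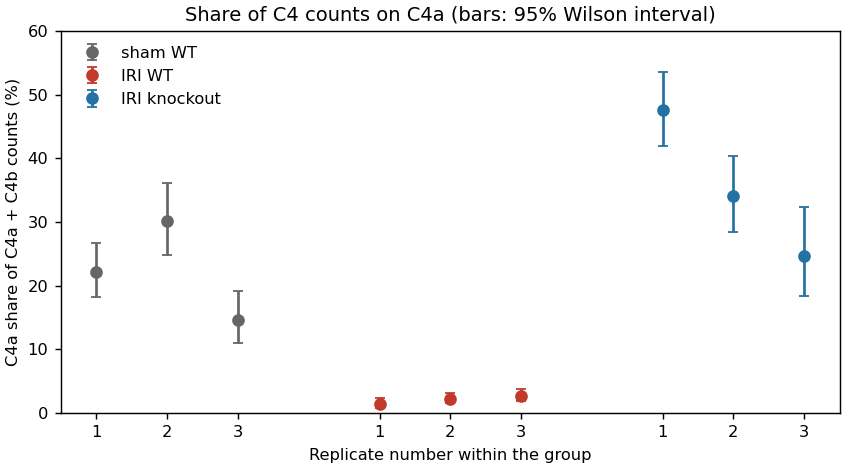
Percentage of C4a plus C4b counts assigned to C4a in each library, with 95% Wilson intervals for counting error. The injured wild-type libraries lie between 1.40 and 2.61%, below every sham and knockout library.

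Counted as 1 feature, C4a and C4b together rose with injury by a log2 fold change of 1.52 (SE 0.25, adjusted p = 0.000273) and were lower in the injured knockout than in the injured wild-type by -1.64 (adjusted p = 0.000179). The sum follows the more abundant C4b, so the fall of C4a is visible only where reads are assigned to the separate genes. Genes known in mouse kidney to respond to androgens moved in the direction of C4a: 9 of 10 fell with injury and 8 of 10 were higher in the injured knockout than in the injured wild-type. Summed, they ran from 27305 to 36031 CPM in sham, from 2851 to 8078 in wild-type IRI and from 37141 to 40539 in injured knockout libraries. The median log2 fold changes were -2.54 and 1.77, and the part of androgen response in the C4a difference was not tested. Xist was at 8 counts or fewer and the Y-linked Ddx3y at 587 to 1288 counts in every library.

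The genes closest to C4b in pattern were Snx10, Hspb8 and Mical2, at root mean square differences of 0.208, 0.235 and 0.239. They encode a sorting nexin, a small heat shock protein and an oxidase that takes apart actin filaments. C4a had looser neighbours: Slc26a4, an anion exchanger of intercalated cells, Alas1, the first enzyme of haem synthesis, and Tsku, a secreted small proteoglycan, were at 0.501, 0.505 and 0.550.

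C2 and factor B are paired proteases: C2 joins C4 in the classical C3-cleaving enzyme, and factor B joins C3 in the alternative one. C2 was at 12.8, 7.20 and 9.76 CPM in sham, 16.4, 13.1 and 13.4 in wild-type IRI and 11.5, 14.5 and 14.1 in injured knockout libraries. The lowest injured wild-type library lay just above the highest sham library, and the knockout overlapped both groups. C2 rose 1.44-fold with injury, a log2 fold change of 0.53 (SE 0.20, adjusted p = 0.0411). That call was lost in 7 of 9 fits that each left out 1 library. The values without one of the sham libraries 2 or 3 or one of the injured wild-type libraries 1, 2 or 3 were 0.36, 0.51, 0.42, 0.58 and 0.57, with adjusted p from 0.0525 to 0.149, and without knockout library 2 or 3 they were 0.52 in each (adjusted p = 0.0514 and 0.0553). The knockout differed from the injured wild-type by -0.09 (95% interval -0.53 to 0.35) and from sham by 0.44 (95% interval -0.01 to 0.88), and neither was called. Without sham replicate 1 the last difference was 0.66 (adjusted p = 0.0452). With library size as the only scaling, C2 was lower in the knockout than in the injured wild-type by -0.67 (adjusted p = 0.00969); that scaling moves the median of all genes to -0.59.

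Cfb went the opposite way from C3 and C1q. It was at 4.40, 10.96 and 7.74 CPM in sham, 1.01, 0.889 and 0.172 in wild-type IRI and 2.27, 1.58 and 2.06 in injured knockout libraries. The 3 groups did not overlap: sham was highest, the knockout lay between and the injured wild-type was lowest. Counts were low, from 4 to 22 reads in the injured wild-type libraries and from 75 to 198 in sham. Cfb fell by 3.48 on the log2 scale with injury, 11.1-fold (SE 0.49, adjusted p = 0.000104).

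The injured knockout exceeded the injured wild-type in Cfb by a log2 fold change of 1.51 (SE 0.52, adjusted p = 0.0276), and was lower than sham by -1.96 (SE 0.46, adjusted p = 0.0170). Both knockout differences were fragile. The first was 1.05, 1.41 and 1.49 (adjusted p = 0.0627, 0.0576 and 0.0623) without injured wild-type replicate 3, knockout replicate 1 or knockout replicate 3, and 0.95 (adjusted p = 0.131) with library size alone. The second was -1.62, -1.96, -1.83 and -2.0 (adjusted p = 0.0885, 0.0540, 0.0544 and 0.0504) without sham replicate 2 or 3 or knockout replicate 2 or 3.

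The annotation limits what the C2 and Cfb counts can mean. Cfb (chr17:34856374-34862518) and C2 (chr17:34862604-34898265) are neighbours on the minus strand, and Gm20547 (chr17:34856412-34882042), a protein-coding gene annotated on the same strand, spans parts of both. Gm20547 covers 2246 of the 2825 exon bases of Cfb (79.5%) and 1656 of the 3872 of C2 (42.8%), and it had 0 counts in all 9 libraries. Only 579 exon bases of Cfb (20.5%) belong to no other gene, and the longest run of them, 467 bases, lies at its 5′ end. The opposite-strand gene Zbtb12 covers another 161 bases of C2. The 0 counts of Gm20547 mean that no read in the shared exons was credited to it. Such reads were either left out, as some counting tools do by default, or given to Cfb or C2 alone. If they were left out, the Cfb count rests on those 579 bases. The sources used here do not say which was done.

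**Figure D4:**
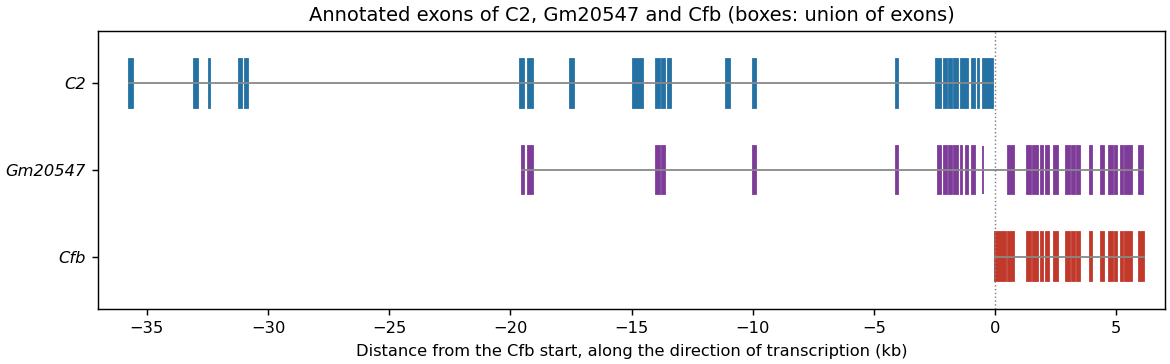
Annotated exons (boxes, GENCODE M21, mm10) of C2, Gm20547 and Cfb against distance in kb from the Cfb start along the direction of transcription. Gm20547 shares 79.5% of the exon bases of Cfb and 42.8% of those of C2.

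Divided by all its exon bases, Cfb averaged 2.73 CPM per kb in sham and C2 averaged 2.56. Divided by the exon bases that no other gene covers on either strand (2055 for C2 and 579 for Cfb), a scale that applies only if reads in shared exons were left out, sham libraries had 7.59 to 18.9 CPM per kb for Cfb and 3.50 to 6.22 for C2. Injured wild-type libraries then had 0.297 to 1.75 for Cfb and 6.36 to 7.97 for C2, and knockout libraries 2.73 to 3.91 and 5.62 to 7.08. On the second scale the order in sham was Cfb above C2 in every library, and it was the reverse in the injured libraries of both genotypes. Summed as 1 feature, C2 and Cfb showed no called difference: -0.23 with injury (adjusted p = 0.162), 0.04 for the knockout against the injured wild-type (adjusted p = 0.837) and -0.20 against sham (adjusted p = 0.342).

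With injury, and in the injured knockout against the injured wild-type, proximal tubule markers moved in the direction of Cfb and C4a. All 12 fell with injury and all 12 were higher in the injured knockout than in the injured wild-type, with medians of -2.30 and 2.09. Their summed level ran from 18650 to 20296 CPM in sham, from 3246 to 4758 in wild-type IRI and from 16969 to 18411 in injured knockout libraries, and none was at 0. The direction was not particular to the proximal tubule. Of 8 distal nephron markers, 4 fell and none rose with injury, with a median of -0.65. In the knockout against the injured wild-type, 6 of the 8 were higher and none lower, with a median of 0.93. Against sham, the injured knockout had 1 of the 12 proximal tubule markers higher and 4 lower, with a median of -0.30. Of all tested genes, 8.13% were higher and 9.48% lower there. In that comparison Cfb was at -1.96, and C4a was at 0.68 without a call. The gene closest to Cfb in pattern was Slco1a1, an organic anion transporter of the proximal tubule and a member of the androgen list, at 0.415, followed by Gm6652 and Prok1 at 0.444 and 0.456. Slco1a1 averaged 448, 52.5 and 159 CPM in sham, injured wild-type and injured knockout kidney. Prok1 encodes a secreted peptide, prokineticin. The part of tubule loss in the Cfb and C4a differences was not tested. The genes nearest C2 were Rpl39, a ribosomal protein gene, the snoRNA host Gas5 and Zfp945, at 0.128, 0.142 and 0.144, but 91.2% of the genes compared lay within 1 of C2, so this nearness separates few genes.

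C3, the protein on which all complement pathways converge, had the largest fold change with injury among the members. C3 (chr17:57203970-57228136) was at 34.8, 20.6 and 16.5 CPM in sham, 916, 1198 and 804 in wild-type IRI and 69.2, 15.8 and 18.5 in injured knockout libraries. The lowest injured wild-type library was more than an order of magnitude above the highest of the others. Within the knockout, replicate 1 was above the sham range, replicate 3 within it and replicate 2 just below it. C3 rose 40.5-fold with injury, a log2 fold change of 5.34 (SE 0.55, adjusted p = 9.12e-06).

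In the injured knockout C3 was 28.2-fold lower than in the injured wild-type, a log2 fold change of -4.82 (SE 0.54, adjusted p = 1.67e-05). Without knockout replicate 1, the library that stands apart, it was -5.81 (adjusted p = 2.37e-07). Against sham the difference was 0.52 with a 95% interval of -0.52 to 1.57, and without that library it was -0.48 (adjusted p = 0.257), so 1 library sets its sign. Per kilobase of exon, C3 averaged 4.66 CPM in sham and 189 in injured wild-type kidney, beside 230 for C1qa and 178 for C1qb in the latter.

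Few genes matched C3 in both pattern and size of change: 0.544% of the compared genes lay within a root mean square difference of 1. The measure is not scaled for the size of a change. Genes high in the same group but with smaller changes can therefore lie outside 1, as C1qa did. Cd44, the hyaluronan receptor that injured tubules are known to express, was closest at 0.257. Sprr1a, a structural protein of stressed epithelia, and Timp1, an inhibitor of matrix proteases, followed at 0.362 and 0.471. Cd44 averaged 4.41 CPM in sham, 134 in wild-type IRI and 5.78 in injured knockout kidney, and its highest knockout library was at 12.1 CPM. C1qa and C3 differed by 1.16 on this measure, and C3 and Cfb by 3.85, the widest gap among the members.

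Hepatocyte genes, listed because the liver makes most circulating C3, did not move as a block with C3. Of 8 such markers, 6 were tested. With injury Fgb rose by a log2 fold change of 3.57, Alb, Apob and Ttr fell by 4.12, 2.90 and 1.09, and Apoa1 and Serpina1a were at -1.29 and -0.20 without a call. The summed CPM of all 8 was 148 to 170 in injured wild-type, below 375 to 511 in sham and 460 to 477 in injured knockout libraries. Serpina3k and Ahsg were not tested.

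C3ar1 (chr6:122847138-122856161) encodes the receptor for C3a on myeloid cells. It was at 1.41, 1.16 and 1.55 CPM in sham, 30.3, 26.5 and 30.4 in wild-type IRI and 0.365, 2.71 and 1.79 in injured knockout libraries. The injured wild-type libraries were close together and far above the rest. The knockout libraries spread to both sides of the narrow sham range. C3ar1 rose 21.1-fold with injury, a log2 fold change of 4.40 (SE 0.38, adjusted p = 2.80e-06), and was 17.9-fold lower in the injured knockout than in the injured wild-type (log2 -4.16, adjusted p = 4.19e-06). Against sham the difference was 0.24 with a 95% interval of -0.75 to 1.22. Its closest genes were Clec4a2, a myeloid lectin receptor, Mfap4, a microfibril protein, and Ccl6, a chemokine, at 0.410, 0.414 and 0.418.

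Per kilobase of all annotated exon bases, the order of levels differed between groups. The place of Cfb and C2 rests on that length: over the bases no other gene covers, Cfb was at 7.59 to 18.9 CPM per kb in sham, around or above the C1qc mean. In sham it ran C1qa, C1qb, C1qc, C3, Cfb, C2, C4b, C4a and C3ar1, at means of 21.7, 20.1, 8.52, 4.66, 2.73, 2.56, 2.40, 0.615 and 0.319 CPM per kb. In injured wild-type kidney it was C1qa at 230, C3 at 189, C1qb at 178, C1qc at 87.9, C4b at 8.64, C3ar1 at 6.75, C2 at 3.69, Cfb at 0.245 and C4a at 0.171. In the injured knockout it was C1qa at 22.2, C1qb at 18.9, C1qc at 8.64, C3 at 6.71, C2 at 3.46, C4b at 1.76, C4a at 0.987, Cfb at 0.698 and C3ar1 at 0.377. C1qa led in all 3 groups. C3 ranked below all C1q chains in sham and above C1qb and C1qc in the injured wild-type, where its range overlapped those of C1qa and C1qb. Neighbours such as C1qa and C1qb in sham, or Cfb, C2 and C4b in sham, did not differ beyond their spread.

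Other complement genes were taken from lists by role. Their calls stand beside 29.5% of all tested genes that rose and 28.7% that fell with injury. In the knockout against the injured wild-type, 27.8% of all tested genes were higher and 28.1% lower. Among the classical initiators, the partner proteases C1ra and C1s1 rose and the related C1rl fell with injury, and each went the opposite way in the knockout against the injured wild-type. C1ra was at 13.4, 9.58 and 9.35 CPM in sham, 52.5, 50.7 and 61.3 in wild-type IRI and 8.48, 13.6 and 10.8 in injured knockout libraries. The injured wild-type stood apart and the other groups overlapped. The injury log2 fold changes were 2.35, 2.53 and -1.26 (adjusted p = 1.74e-06, 1.01e-05 and 1.98e-05). C1rb and C1s2, close copies of C1ra and C1s1 that may share reads with them, were too low to test.

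In the lectin pathway, which reaches C4 and C2 from sugars instead of C1q, 4 of 8 genes were tested. The protease gene Masp1 rose with injury by a log2 fold change of 3.15 (adjusted p = 1.28e-05). Masp2, the protease that cleaves C4, fell by 3.86 and the mannose-binding lectin gene Mbl1 fell by 1.36 (adjusted p = 0.00189 and 0.00206). Masp2 was low in every library, from 0 to 1.5 CPM. Against the injured wild-type, the knockout was lower in Masp1 and higher in Masp2 and Mbl1, and Colec11 was not called in any comparison. Of the 2 remaining alternative pathway genes, Cfp, which encodes properdin and stabilises the alternative C3-cleaving enzyme, rose, from 3.45 to 34.5 CPM on average (log2 3.32, adjusted p = 8.25e-07). It was lower in the knockout than in the injured wild-type by -2.86, and Cfd was too low to test.

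Terminal pathway genes, whose products form the membrane attack complex, went both ways. C6 rose by a log2 fold change of 3.67 and C7 by 2.11, while C8a fell by 3.72 and C8g by 2.07 (adjusted p from 1.27e-06 to 0.000114). C8a was at 30.4, 47.1 and 31.1 CPM in sham, 1.38, 3.38 and 3.44 in wild-type IRI and 32.4, 33.2 and 32.2 in injured knockout libraries. The injured wild-type was lowest without overlap, and the knockout lay within the sham range. All 4 differed the opposite way in the knockout against the injured wild-type, and none was called against sham. Hc, C8b and C9 were too low to test.

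Complement receptors moved with C3ar1. With injury 6 of 7 tested receptor genes rose and none fell, with a median log2 fold change of 3.07, and the same 6 were lower in the knockout than in the injured wild-type, with a median of -3.16. Itgam and Itgax, which encode the alpha chains of complement receptors 3 and 4, rose by 3.70 and 3.12 (adjusted p = 1.99e-07 and 2.92e-07). The C5a receptor gene C5ar1 was at 3.22, 1.44 and 1.90 CPM in sham, 16.6, 21.6 and 17.5 in wild-type IRI and 0.877, 0.829 and 1.03 in injured knockout libraries. Its 3 groups did not overlap, and the knockout was the lowest. C5ar1, Itgb2, the shared beta chain, and Cd93 were lower in the injured knockout than in sham, by -1.25, -0.99 and -0.56 (adjusted p = 0.0252, 0.0224 and 0.0304). Each of these 3 calls was lost when single libraries were left out, in 5, 3 and 4 of the 9 fits (adjusted p up to 0.0914). Cr2, the B cell receptor for C3 fragments, was not called and Vsig4 was too low to test.

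Of 12 tested regulators, which limit the cascade, 5 rose with injury, 2 fell and 5 were not called, with a median log2 fold change of 0.85. Of all tested genes, 29.5% rose and 28.7% fell, 58.2% in all, so the regulators were called about as often as genes at large. Cfi, the protease factor I that cuts C4b and C3b, was at 4.75, 4.37 and 5.77 CPM in sham, 36.6, 38.5 and 26.3 in wild-type IRI and 4.68, 4.30 and 4.06 in injured knockout libraries. The injured wild-type was several times higher, and the other groups overlapped. Cfi rose by a log2 fold change of 2.77, Serping1 (the C1 inhibitor) by 2.55 and Clu (clusterin) by 1.79, with adjusted p from 4.92e-07 to 1.77e-05. C4bp and Cfhr2 rose from near 0, to 2.11 and 1.17 CPM on average. The same 5 were lower in the knockout than in the injured wild-type.

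Other regulators fell or were not called. Cd55, the decay-accelerating factor, fell by 1.1 with injury (adjusted p = 0.000679) and was higher in the knockout than in the injured wild-type by 1.25. Cr1l, the mouse Crry protein that protects tubules from complement, went from 57.9 to 49.2 CPM on average, a log2 fold change of -0.23 (adjusted p = 0.0361). With library size alone it was 0.31 in the other direction, and its call was lost without single libraries in 4 of 9 fits (adjusted p up to 0.115). Cd46, Cd59a, Cd59b, Vtn and Susd4 were not called, at 0.47, -0.07, 0.27, 1.22 and 0.48. With library size alone, 10 regulators rose and 1 fell, and that scaling moves the median of all genes to 0.57. No regulator was called in the knockout against sham, but Clu and Cr1l were near the threshold. Clu, at 0.61 (adjusted p = 0.0537), was called higher without injured wild-type replicate 3 or knockout replicate 3 (adjusted p = 0.0448 and 0.0428) and with TMM computed without the 20 most abundant genes (adjusted p = 0.0498). Cr1l, at -0.26 (adjusted p = 0.0602), was called lower with DESeq2 size factors and with library size alone (adjusted p = 0.0493 and 0.0309).

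**Figure D5:**
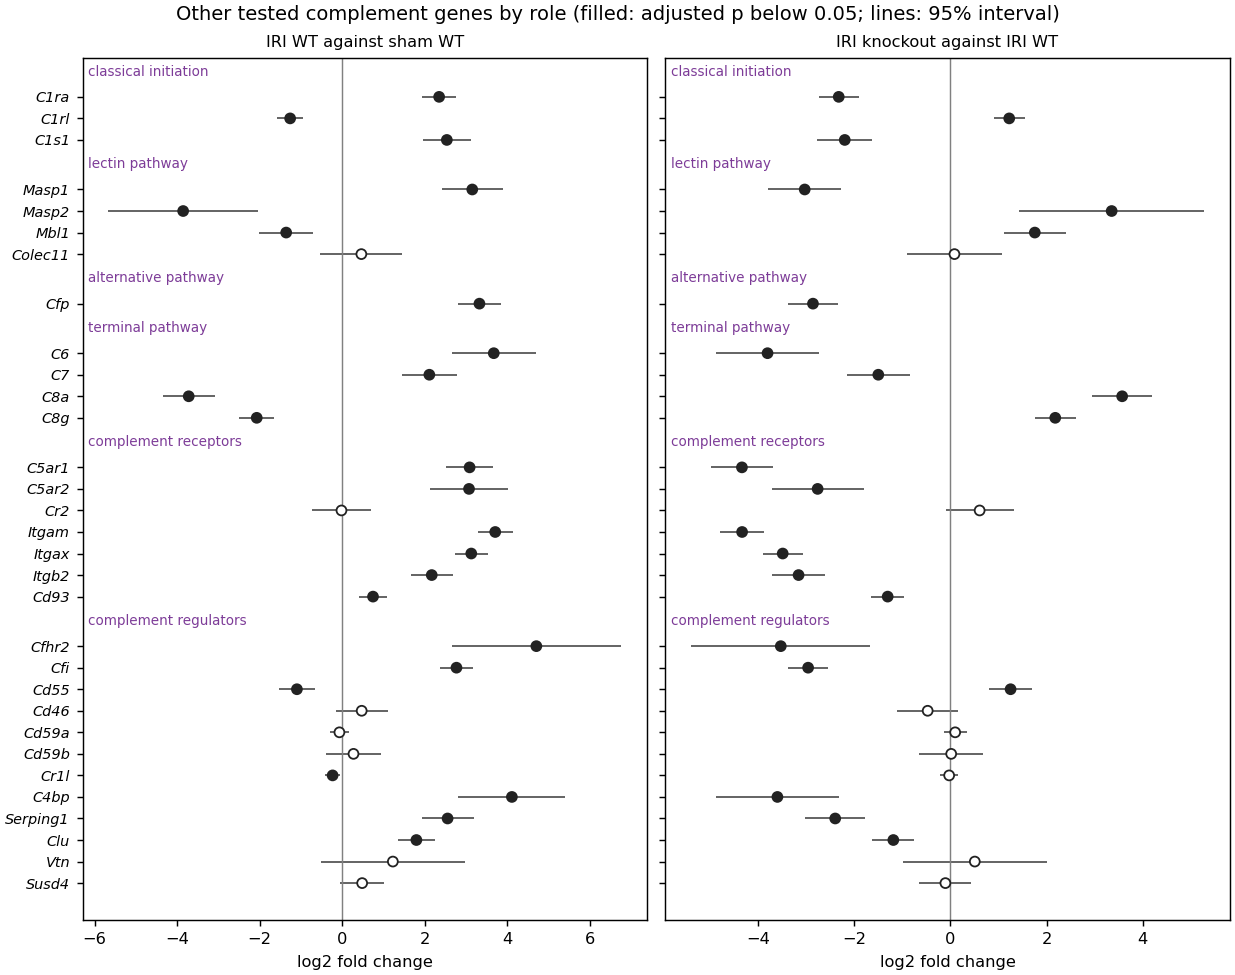
Log2 fold change with 95% interval of the tested complement genes outside the 9, by role, with injury in wild-type (left) and in the injured knockout against the injured wild-type (right); filled points passed an adjusted p of 0.05. C8a, at -3.72 on the left, and Cfi, at 2.77, change sides between the panels.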

How the data were processed

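RNA of whole kidney was sequenced, and the values were deposited by the authors as unnormalised counts per Ensembl gene, 1 column per library. The labels' protocols name total RNA and a NEBNext Ultra RNA kit, and the submitters' processing notes name mm10 and DESeq2 1.16.1. No aligner, counter, annotation release or strand setting is named in the sources used here. Symbols and exons came from GENCODE M21 (mm10), which matched 55227 of 56305 identifiers, and promoters from RefSeq.

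In R 4.3.3, edgeR 4.0.16 kept 15974 genes with filterByExpr, scaled them with TMM and fitted 1 quasi-likelihood model to all 9 libraries, with a 2-sided test and Benjamini-Hochberg adjustment over all tested genes at 0.05. Alternatives used limma 3.58.1 (voom) and DESeq2 1.42.0 among others. C4a shares were compared by an exact permutation test. Log2 CPM used a prior count of 2. The procedure was tested on simulated data. Every pair of libraries within a group differed by more than counting noise. The genes named were the 9, Pfkfb3, overlapping genes, the 3 genes closest in pattern, and in each list those with the 2 smallest p and any behind a count of 5 or fewer. Further pathway genes were named after their values were seen. The members and lists were chosen with earlier results of these data known. 2 genes of the lists are not reported here.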

Additional observations from a re-analysis of the deposited data

How the results depend on the processing

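Of the members' counts of calls, the knockout against the injured wild-type had 1 higher in place of 2 with library size alone and at a false discovery rate under 0.01, and 0 with C4a and C4b, and C2 and Cfb, summed. Its count lower than sham was 0 in place of 1 at the stricter rate and with sums, and the count that fell with injury was 0 in place of 2 with sums. Here the sums merge a falling gene with one more abundant on average in each group. In sham replicate 2, however, Cfb had 198 counts and C2 had 130. Leaving out each library gave 1 to 2 higher against the injured wild-type, and 0 to 1 higher and 0 to 1 lower against sham. Calls of C1qa, C1qb, C1qc, C3, C4b and C3ar1 in the first 2 comparisons held under every alternative run. Signs changed for uncalled values of the knockout against sham: C1qc was -0.011 with library size alone, -0.017 with limma-voom and -0.0034 with the replicate block, and C3ar1 was -0.14 with limma-voom. Without single libraries these values ran from -0.10 to 0.22 for C1qa, -0.25 to 0.18 for C1qb, -0.21 to 0.30 for C1qc, -0.48 to 0.89 for C3 and -0.32 to 0.71 for C3ar1, and C2 against the injured wild-type from -0.15 to 0.016. With sums, C4a took 1.52, -1.64 and -0.12 and C2 took -0.23, 0.037 and -0.20 in the 3 comparisons. The cause was not tested apart from the sums. The C4a share difference ran from -24.1 to -16.3, from 27.3 to 38.8 and from 7.09 to 18.6 percentage points without single libraries. Same-numbered libraries did not deviate together (r from -0.12 to 0.06), so replicate numbers were not taken as pairs. The replicate block changed no member's call and gave 943 genes higher and 1105 lower for the knockout against sham, in place of 1298 and 1515. For that comparison a rate under 0.01 called 230 and 334, and a log2 fold change of at least 1 called 222 and 218. Library size alone called 82.0% of changed genes higher with injury, against 50.6%, and 16.9% against 49.7% for the knockout against the injured wild-type. Depth limits C4a, Cfb and C3ar1 most, since each had libraries with few counts.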
